A study of Mus musculus with 24 samples.

Results

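The miR-29 family was followed here through 4 mature miRNAs of the 1221 counted: the 3 guide strands mmu-miR-29a-3p, mmu-miR-29b-3p and mmu-miR-29c-3p, and mmu-miR-29b-1-5p, the opposite (passenger) strand of the Mir29b-1 hairpin. They were chosen by name, and the isoform counts of each name were summed. The cells were 3T9, mouse embryo fibroblasts that have become an immortal line, grown in medium with serum. The labelled cells received 300 µM 4-thiouridine (4SU, a form of uridine with a thiol group to which biotin can be joined) for 3 h, and then 1 mM uridine as a chase. RNA carrying 4SU was biotinylated and taken out on streptavidin beads after 0, 2, 4, 6, 8, 10 and 12 h of chase in 3 experiments, which gave 21 labelled libraries. The series design calls the 3 experiments independent biological repeats. A further 3 libraries were controls with 1 library each. Unpurified total RNA was taken from unlabelled cells and from cells pulsed with 4SU, and the purification was carried out on unlabelled RNA (the negative extraction).

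A miRNA hairpin is cut by Drosha and Dicer into a short duplex. One strand, the guide, is loaded into an Argonaute protein and directs it to mRNAs that pair with the seed near its 5′ end, while the passenger strand is usually released and destroyed. The miR-29 guides share a seed and are known in fibroblasts as repressors of collagen and other extracellular matrix mRNAs. The 3′ end of miR-29b has been described as an element that directs it to the nucleus, and uracils in the middle of miR-29b and miR-29c have been described as hastening their turnover.

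The sequences are shown because the 3 guides differ at few bases, and because the passenger has another seed and so other possible targets. Bases 2 to 8, the seed, are in capitals, and each sequence runs 5′ to 3′ as listed by RefSeq (GRCm38.p6).
mmu-miR-29a-3p: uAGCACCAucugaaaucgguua
mmu-miR-29b-3p: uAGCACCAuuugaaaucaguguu
mmu-miR-29c-3p: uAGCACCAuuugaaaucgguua
mmu-miR-29b-1-5p: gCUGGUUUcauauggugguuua

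Counted from the 5′ end, miR-29c-3p differed from miR-29a-3p by C10U alone. From miR-29c-3p to miR-29b-3p the changes were G18A, U21G and A22U, and miR-29b-3p was 23 bases long against 22 for the other members. The seed AGCACCA was held by these 3 of the 1679 mature mouse names that RefSeq lists with a sequence. The bases UUU at positions 9 to 11, present in miR-29b-3p and miR-29c-3p, were held by 24 of the 1679. The last 6 bases of miR-29b-3p, AGUGUU, ended 2 of the 1679, the other being mmu-miR-92b-5p. Uracil, the base that 4SU replaces, occurs 6 times in miR-29a-3p, 8 times in miR-29b-3p, 7 times in miR-29c-3p and 10 times in miR-29b-1-5p, against a median of 6 over the tested miRNAs with a sequence.

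The members come from 4 hairpins in 2 clusters (GRCm38.p6). Mir29a (chr6:31062660-31062747) and Mir29b-1 (chr6:31063023-31063093) lie on the minus strand with 275 bases between them, and Mir29b-1 falls in an exon of the lincRNA gene Gm27019. Mir29b-2 (chr1:195037040-195037120) and Mir29c (chr1:195037547-195037634) lie on the plus strand with 426 bases between them. Both fall in exons of the noncoding gene A330023F24Rik and of Cd46, a protein-coding gene on the opposite strand. Both Mir29b hairpins give the same miR-29b-3p, at chr6:31063025-31063047 and chr1:195037091-195037113, so its counts cannot be divided between them, while miR-29b-1-5p (chr6:31063067-31063088) comes from Mir29b-1 only. The hairpin that yields the passenger is shown with both mature strands in capitals.
Mir29b-1: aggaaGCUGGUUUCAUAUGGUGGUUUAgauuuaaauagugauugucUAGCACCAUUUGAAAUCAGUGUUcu

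The labelled libraries held 1133048 to 7886484 miRNA counts, total unlabelled RNA 6412428, total 4SU RNA 4525638 and the negative extraction 283922. Levels are given in CPM, where the summed miRNA count of each library is scaled to the same total. In experiment 1 depth fell from 7733333 at 0 h to 3281631 at 12 h, in experiment 2 from 3019171 to 1133048, and in experiment 3 from 4613499 to 2533106. The fibroblast marker miRNAs, 7 of 7 found, summed to 140078 to 267110 CPM in the labelled libraries, most of it miR-143-3p, miR-21a-5p and miR-22-3p. The 6 blood markers summed to 185 to 734 CPM, nearly all of it miR-486a-5p, and the 7 epithelial markers to 201 to 1151 CPM, nearly all of it miR-205-5p. Muscle markers (3 of 3 found) reached at most 22.1 CPM, neuron markers (1 of 2 found) 8.54 CPM and embryonic stem cell markers (2 of 4 found) 0.692 CPM. A code in the table header, which the labels do not explain, is one for all libraries of an experiment except the 0 h library of experiment 1, whose code differs in its first letters. The negative extraction carries the code of the other libraries of experiment 1. Its differences from all remaining libraries are thus tied to the code too. Both total RNA libraries share a code of their own, so any difference tied to it and the difference between labelled and total RNA cannot be told apart.

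miR-29a-3p was by far the main family member. It made up 98.8 to 99.6% of the 3 guides' counts in the labelled libraries, with a median of 99.2%, against medians of 0.631% for miR-29b-3p and 0.165% for miR-29c-3p. In order of chase time from 0 to 12 h it stood at 3599.7, 4547, 4283, 4323, 5086, 4898 and 3759 CPM in experiment 1. The series was 3699.7, 2359, 2514, 3004, 3205, 3395 and 3548 CPM in experiment 2. Experiment 3 gave 2581, 2754, 2795, 3207, 3239, 3145 and 3543 CPM. The 0 h and 12 h groups overlapped, and the 12 h level was 1.04, 0.959 and 1.37 times the 0 h level in experiments 1 to 3. The mean was 3293 ± 619 CPM at 0 h and 3617 ± 124 CPM at 12 h (SD, n = 3).

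miR-29b-3p was present at a far lower level and rested on 11 to 228 counts a library. In experiment 1 it stood at 15.8, 28.9, 29.1, 34.5, 33.9, 48.7 and 15.8 CPM from 0 to 12 h. In experiment 2 the levels were 18.9, 12.3, 7.01, 21.5, 29.8, 23.5 and 27.4 CPM. In experiment 3 they were 11.1, 19.9, 13.8, 21.6, 13.7, 18.9 and 22.1 CPM. Within each experiment the levels from 6 h on were above that at 0 h, but the 12 h library of experiment 1 was back at its starting level and the 0 h and 12 h groups overlapped. The 12 h level was 1.00, 1.45 and 2.00 times the 0 h level in experiments 1 to 3, with means of 15.2 ± 3.94 CPM at 0 h and 21.8 ± 5.76 CPM at 12 h (SD, n = 3).

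miR-29c-3p was the least abundant guide, with 3 to 57 counts a library. From 0 to 12 h it stood at 4.78, 5.45, 7.83, 8.42, 10.4, 8.16 and 7.92 CPM in experiment 1. Experiment 2 gave 6.96, 2.46, 1.91, 5.37, 6.04, 9.15 and 15.0 CPM, and experiment 3 gave 3.68, 3.34, 3.46, 3.26, 4.47, 3.04 and 9.87 CPM. All 3 libraries at 12 h were above all 3 at 0 h, by 1.66, 2.16 and 2.68 times within experiments 1 to 3. How many of all tested miRNAs separated in this way, up or down, was not counted. In experiment 3 the higher level was seen at 12 h only, where the 6 earlier libraries lay between 3.04 and 4.47 CPM. The means were 5.14 ± 1.66 CPM at 0 h and 10.9 ± 3.66 CPM at 12 h (SD, n = 3).

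The passenger miR-29b-1-5p went the other way. It stood at 44.7, 35.9, 29.1, 24.2, 13.0, 16.3 and 8.53 CPM from 0 to 12 h in experiment 1. The levels were 44.1, 57.4, 32.5, 8.43, 16.8, 13.7 and 22.9 CPM in experiment 2, and 117, 106, 50.9, 47.5, 31.6, 22.9 and 18.2 CPM in experiment 3. All 3 libraries at 12 h lay below all 3 at 0 h, and the 12 h level was 0.191, 0.521 and 0.155 times the 0 h level. As for miR-29c-3p, such separation was not counted over all tested miRNAs. Experiment 3 started highest, and in experiment 2 the lowest library was that of 6 h, with 11 counts. The means were 68.6 ± 41.9 CPM at 0 h, 26.7 ± 19.7 CPM at 6 h and 16.5 ± 7.34 CPM at 12 h (SD, n = 3).

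The order of the members therefore changed during the chase. At 0 h it was miR-29a-3p, miR-29b-1-5p, miR-29b-3p and miR-29c-3p, with no overlap between neighbours over the 3 experiments. At 12 h miR-29b-3p stood second, at 15.8 to 27.4 CPM, and its values overlapped those of miR-29b-1-5p, at 8.53 to 22.9 CPM, which in turn overlapped those of miR-29c-3p, at 7.92 to 15.0 CPM. These are read levels of molecules of nearly one length, and a miRNA's ligation efficiency can move them.

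**Figure D1:**
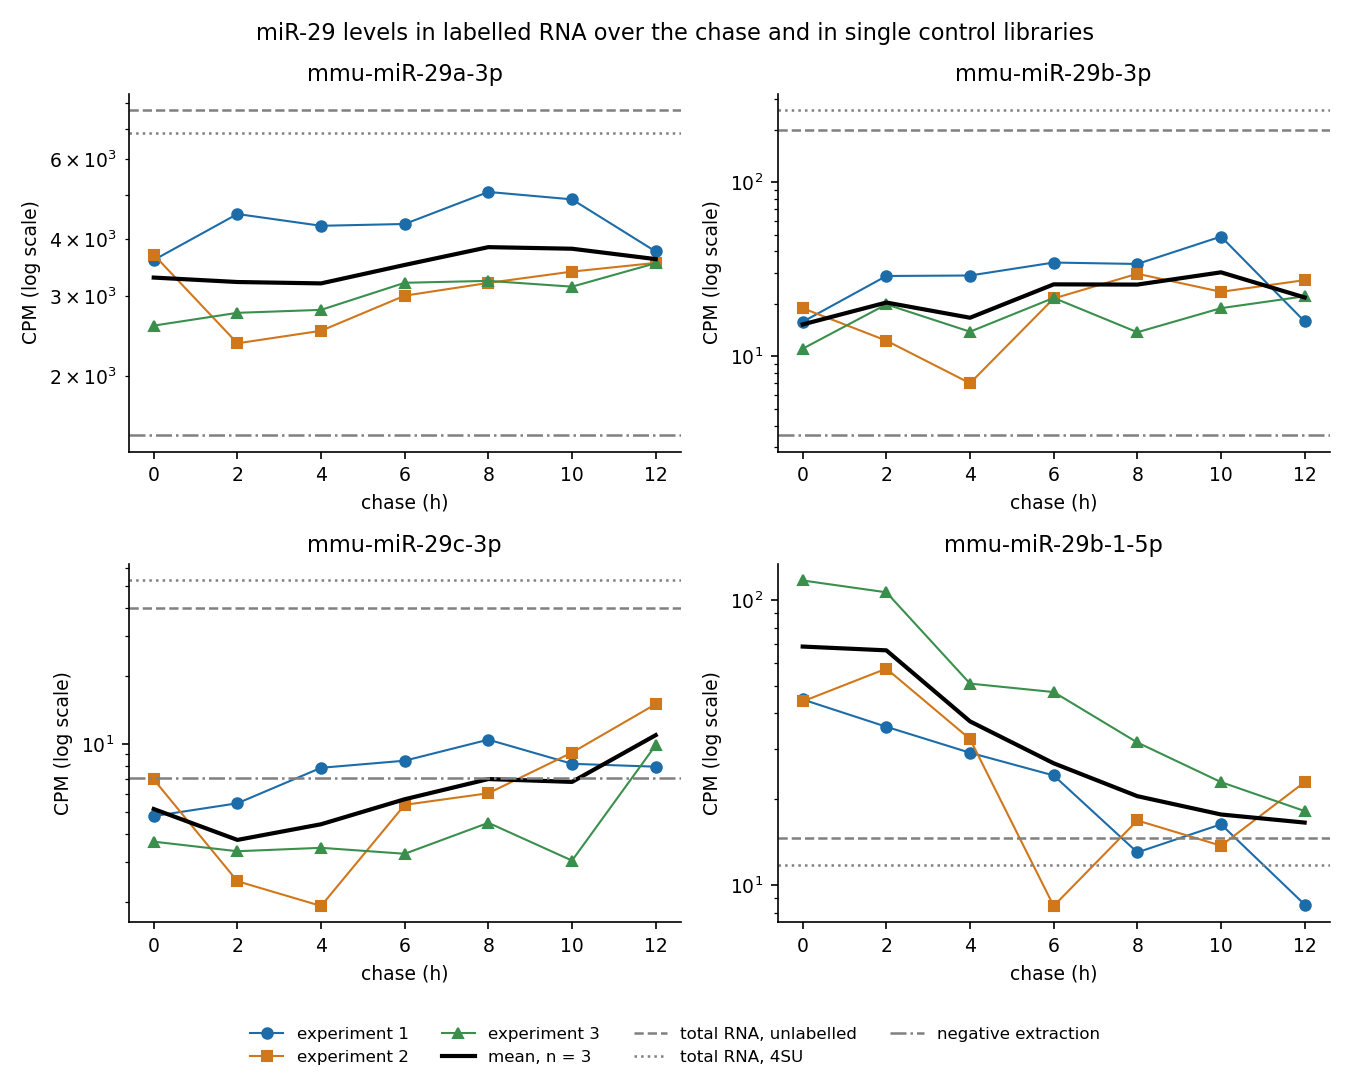
Level of each member in CPM (log axes that differ between panels) against hours of chase, with thin lines for the 3 experiments, a thick line for their mean and grey lines for the single control libraries (none for the negative extraction in the last panel, where the count was 0). The 3 guides lie below both total RNA libraries throughout, while miR-29b-1-5p starts above them and reaches their range by 12 h.

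In the control libraries, miR-29a-3p stood at 7718 CPM in total unlabelled RNA, 6861 CPM in total 4SU RNA and 1479 CPM (420 counts) in the negative extraction. miR-29b-3p was at 199.9 and 260.1 CPM in the total RNAs, and miR-29c-3p at 39.9 and 53.0 CPM. The passenger miR-29b-1-5p was at 14.7 CPM in total unlabelled RNA and at 11.7 CPM in total 4SU RNA. In total RNA the order was thus miR-29a-3p, miR-29b-3p, miR-29c-3p and miR-29b-1-5p, with the passenger last.

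The guides were scarcer in labelled RNA than in total RNA, and the passenger was more abundant. On log2 of CPM plus 1, averaged over the experiments, labelled RNA at 0 h against total 4SU RNA came to -1.08 for miR-29a-3p, -4.04 for miR-29b-3p, -3.17 for miR-29c-3p and 2.30 for miR-29b-1-5p, beside a median of -0.024 over the 414 tested miRNAs. For miR-29b-3p this was 16.4-fold lower (13.1 to 21.7 over the experiments), the 7th lowest of the 414. For miR-29c-3p it was 9.01-fold lower (6.79 to 11.5), the 19th lowest. For miR-29b-1-5p it was 4.91-fold higher (3.54 to 9.29), at place 408 from the lowest. On these averages the distances had shrunk by 12 h for all 4 members. miR-29b-3p was 11.7-fold, miR-29c-3p 4.67-fold and miR-29a-3p 1.90-fold lower than in total 4SU RNA. miR-29b-1-5p was 1.29-fold higher, beside a median that was 1.34-fold lower. Not every experiment moved so: miR-29a-3p in experiment 2 went from 1.85-fold to 1.93-fold lower, and miR-29b-3p in experiment 1 from 15.6-fold to 15.5-fold. At 12 h miR-29b-1-5p was 1.33-fold lower than in total 4SU RNA in experiment 1, and 1.88-fold and 1.51-fold higher in experiments 2 and 3. Each total RNA is a single library, so these ratios carry no test. The guides were also scarcer in the negative extraction than in total unlabelled RNA. On the same scale that ratio was -2.38 for miR-29a-3p, -5.47 for miR-29b-3p and -2.35 for miR-29c-3p, beside a median of -0.388. For miR-29b-1-5p, with 0 counts there, it was -3.97. Labelled RNA at 0 h against the negative extraction gave 1.14, 1.81, -0.424 and 5.96 in that order, beside a median of 0.344. Whether the guides' scarcity is particular to labelled RNA was not tested.

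**Figure D2:**
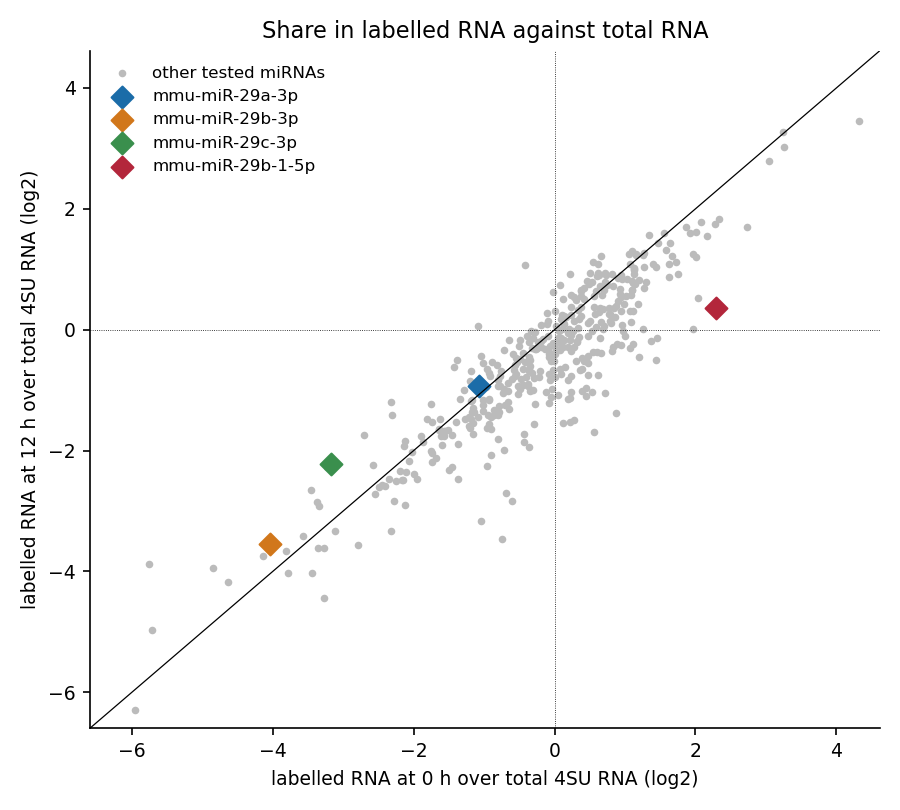
Log2 ratio of labelled RNA to total 4SU RNA at 0 h (x axis) and at 12 h of chase (y axis), as means over 3 experiments for each of the 414 tested miRNAs (grey) and the 4 members (coloured). The guides miR-29b-3p and miR-29c-3p lie at the low end and above the line of equality, while miR-29b-1-5p lies at the high end and far below the line.

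The negative extraction limits what can be said of the rare guides. It held 1 count of miR-29b-3p, which is 3.52 CPM with an exact 95% Poisson interval of 0.0892 to 19.6 CPM, and 2 counts of miR-29c-3p, which is 7.04 CPM (0.853 to 25.4). The labelled levels of miR-29c-3p all lay within that interval, and those of miR-29b-3p, from 7.01 to 48.7 CPM, partly within and partly above its own. For miR-29a-3p the share in the negative extraction was below that of every labelled library. miR-29b-1-5p had 0 counts there, with an interval of 0 to 13.0 CPM. Against the level that 3 counts would give, 10.6 CPM, the passenger at 0 h was 4.23-fold, 4.17-fold and 11.1-fold higher in experiments 1 to 3. The 12 h library of experiment 1 was under that level. Shares of unlabelled carry-over within the labelled libraries were not tested, and the intervals cover counting error only, as no molecular identifiers mark the reads.

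Which members gained or lost share over the chase was tested with a slope in log2 per hour, fitted with edgeR's quasi-likelihood test on all 414 miRNAs that passed the filter on low counts. All 4 members passed it. The counts hold no spike-in, so a slope above 0 says that a miRNA gained share among the labelled miRNAs, and it is not a half-life. miR-29b-1-5p lost share, with a slope of -0.18 (SE 0.0346, edgeR adjusted p = 0.00163), at place 411 of 414 from the highest slope. miR-29c-3p gained share, with a slope of 0.11 (SE 0.0315, edgeR adjusted p = 0.0211), the 7th highest. The slopes of miR-29b-3p, 0.079 (SE 0.0295, edgeR adjusted p = 0.0759), and miR-29a-3p, 0.040 (SE 0.0140, edgeR adjusted p = 0.0594), did not pass the threshold of 0.05. Thus 2 of the 4 members were called, 1 in each direction, where 12.3% of all tested miRNAs were called. The median slope of all 414 was near 0 (-0.0037).

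Libraries of one experiment deviated together from their time-point means, so the fit was repeated with the experiment as a block. It called all 4 members, with edgeR adjusted p of 0.000734 for miR-29a-3p, 0.0110 for miR-29b-3p, 0.00185 for miR-29c-3p and 5.35e-08 for miR-29b-1-5p, where 31.9% of all tested miRNAs were called. Slopes within single experiments, on log2 of CPM plus 1, had one sign for each member. They were 0.012, 0.022 and 0.035 for miR-29a-3p, 0.030, 0.094 and 0.048 for miR-29b-3p, and 0.058, 0.13 and 0.067 for miR-29c-3p in experiments 1 to 3. For miR-29b-1-5p they were -0.18, -0.14 and -0.23.

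The call for miR-29c-3p without the block was lost without experiment 1 (edgeR adjusted p = 0.0880), without experiment 3 (0.108), without the 12 h library of experiment 2 (0.0535) or without all 12 h libraries (0.216), and with the canonical isoform alone (0.267). With the block, the calls for miR-29a-3p and miR-29b-3p were lost without experiment 3 (0.0921 and 0.0732), and that for miR-29b-3p also without 0 h (0.140). Without the block, miR-29a-3p was called without experiment 1 (0.0331) or its 2 h library (0.0363), and miR-29b-3p without the 12 h library of experiment 1 (0.0439). miR-29c-3p differs from the far more abundant miR-29a-3p by a single base, and how the authors assigned reads with a miscalled base is not given in the sources used here. With every labelled library thinned to 1133048 counts, the slope of miR-29b-1-5p was -0.20 (edgeR adjusted p = 0.00177) and that of miR-29c-3p 0.17 (0.00783).

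**Figure D3:**
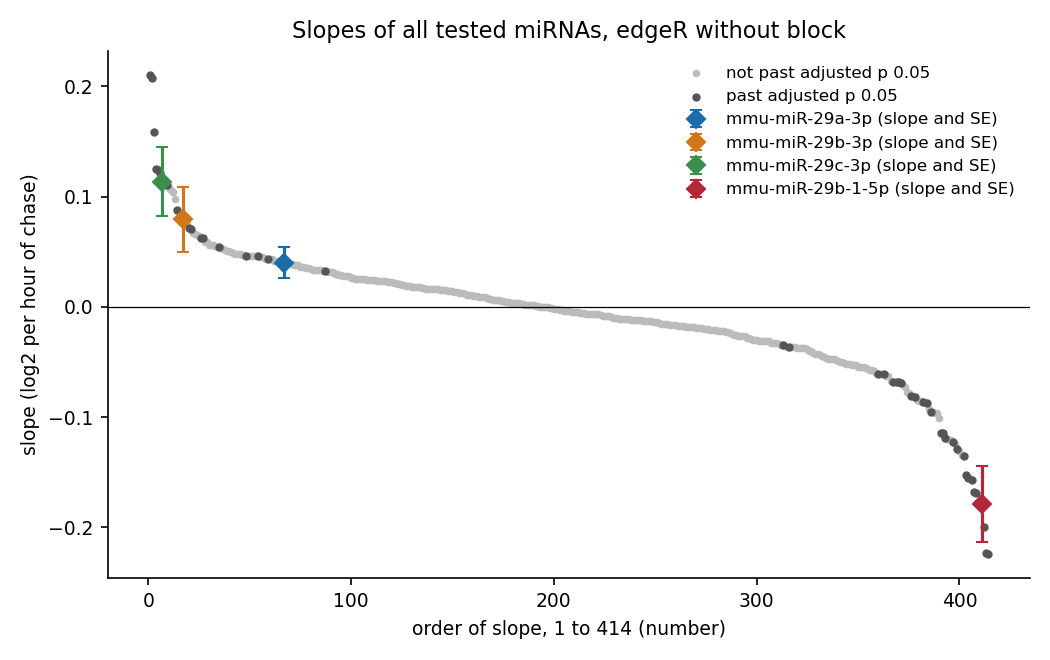
Slope over the chase in log2 per hour (y axis) of all 414 tested miRNAs in order from highest to lowest (x axis), with dark points for those past the adjusted p of 0.05 in the fit without the block and diamonds with SE bars for the 4 members. The 3 guides lie above 0 and miR-29b-1-5p lies among the lowest slopes.

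The contrast of 12 h against 0 h asked how far each member had moved by the end. The log2 differences were -1.83 for miR-29b-1-5p, 1.31 for miR-29c-3p, 0.75 for miR-29b-3p and 0.38 for miR-29a-3p. Without the block none of the 4 passed (edgeR adjusted p of 0.151, 0.228, 0.551 and 0.565), where 1.21% of all tested miRNAs did, that is, 5 of 414. Unadjusted, the edgeR p-values were 0.00608 for miR-29b-1-5p and 0.0204 for miR-29c-3p, both under 0.05, and 0.117 and 0.129 for the other two. With the block, miR-29b-1-5p (edgeR adjusted p = 8.76e-05) and miR-29c-3p (0.0209) passed, where 21.7% of all tested miRNAs did, while miR-29b-3p (0.135) and miR-29a-3p (0.0519) did not. Leaving out the 12 h library of experiment 1, an alternative chosen after the data were seen, brought the blocked values of miR-29b-3p to 1.19 (0.0198) and of miR-29a-3p to 0.49 (0.0199). DESeq2 also called miR-29b-1-5p, with an adjusted p of 0.0440.

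Members were also compared with each other within libraries, as log2 ratios of CPM with 1 CPM added to both, so the scaling of libraries still enters the values of the rarer members. The log2 ratio of miR-29b-1-5p to each guide fell, by 0.20 per hour against miR-29a-3p (adjusted permutation p = 3e-05), by 0.24 against miR-29b-3p (6e-05) and by 0.27 against miR-29c-3p (3e-05). The raw p of the first and the last, 1e-05, is the smallest that 100000 permutations of time points within experiments can give, and the 6 pairs formed the family for adjustment. All 3 experiments showed these directions. Among the guides, the ratio of miR-29c-3p to miR-29a-3p rose by 0.063 per hour (SE 0.0215, two-sided permutation p = 0.00724, adjusted 0.0109), and by 0.073 or 0.032 with 0.25 or 5 CPM added, but the call was lost without experiment 1 (0.0650) and without experiment 2 (0.144). The ratio of miR-29b-3p to miR-29a-3p had a slope of 0.034 (SE 0.0221, adjusted permutation p = 0.170), and that of miR-29c-3p to miR-29b-3p a slope of 0.029 (SE 0.0268, 0.299). These last 2 values do not show that the guides kept their proportions.

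At the end of the pulse the passenger outnumbered its guide. Counts of miR-29b-1-5p over counts of miR-29b-3p were 2.84, 2.33 and 10.6 at 0 h in experiments 1 to 3, and 0.538, 0.839 and 0.821 at 12 h. The ratio was above 1 in all 3 experiments at 0 h and below 1 in all 3 at 12 h. Its mean was 5.25 ± 4.63 at 0 h, 3.10 ± 1.88 at 4 h, 1.08 ± 1.06 at 8 h and 0.733 ± 0.169 at 12 h (SD, n = 3). In total RNA it was 0.0733 for unlabelled and 0.0450 for 4SU-pulsed cells, so even the 12 h libraries lay far above the ratio in total RNA. Because miR-29b-3p also comes from Mir29b-2, the ratio for the Mir29b-1 hairpin alone would be higher still if Mir29b-2 contributed any guide.

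**Figure D4:**
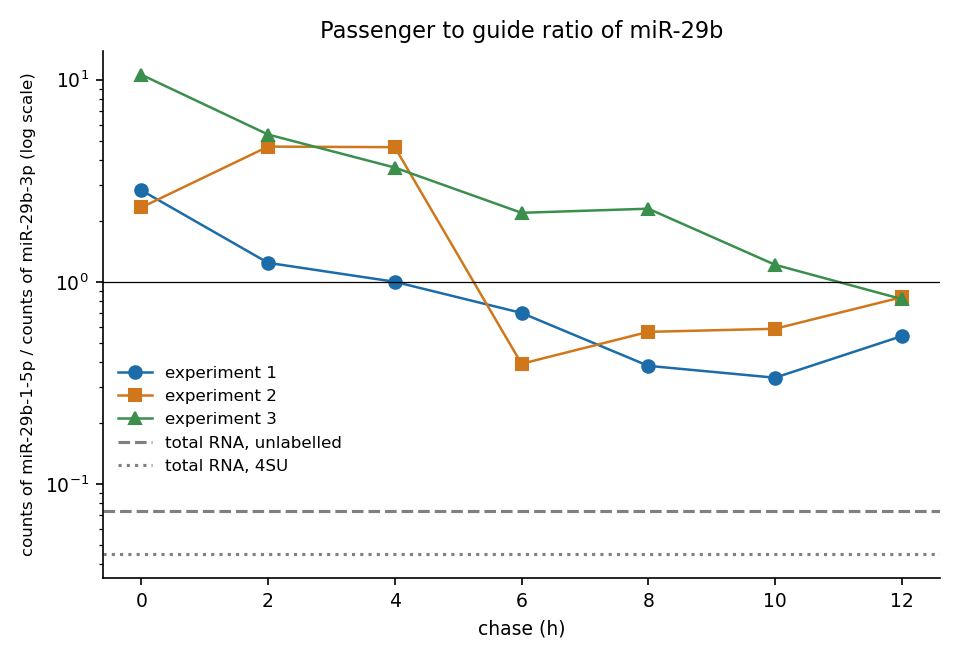
Counts of miR-29b-1-5p over counts of miR-29b-3p (log axis) against hours of chase, 1 line per experiment, with grey lines for both total RNA libraries and a black line at 1. The ratio falls from 2.33 to 10.6 at 0 h to 0.538 to 0.839 at 12 h and stays above total RNA.

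The fall of this ratio was among the steepest of all hairpins. Over the 105 hairpins with both arms tested, limma's slope of log2 of the 5p over the 3p arm was -0.24 per hour for Mir29b-1 (SE 0.0501, limma adjusted p = 0.00244), the 3rd lowest, beside a median of 0.0095. In all, 13.3% of the hairpins were called, 7 with a gain and 7 with a loss of the 5p arm. The ratio is 5p over 3p whichever arm is the rarer, so the median and this split do not describe passengers as such. By mean log2 ratio over the labelled libraries, the 5p arm was the more abundant in every called gain except Mir214. It was the rarer arm in every called loss except Mir29b-1 and Mir98. How often the rarer arm lost share over all 105 hairpins was not counted, so this is not a trait of the called ones. In total RNA the 5p arm of Mir29b-1 was the rarer, at 0.0733 (unlabelled) and 0.0450 (4SU) times the counts of miR-29b-3p. With the block 28.6% were called, and Mir29b-1 had a limma adjusted p of 1.99e-05. Mir301 (-0.29) and Mir92-1 (-0.25) were lower, and Mir130a (-0.11), Mir27a (-0.11) and Mir193a (-0.095) followed above it. The step from Mir29b-1 to Mir130a was thus larger than the steps among the 3 lowest.

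The neighbouring Mir29a hairpin gave other values. Its arm ratio had a slope of -0.010 (SE 0.0221, limma adjusted p = 0.868), and miR-29a-5p, its passenger, stood at 13.8 ± 3.10 CPM at 0 h and 13.0 ± 5.52 CPM at 12 h (SD, n = 3), with a slope of 0.034 (edgeR adjusted p = 0.441). miR-29a-5p was at 40.9 CPM in total unlabelled RNA, above all its labelled levels, which ran from 5.10 to 20.1 CPM, whereas miR-29b-1-5p at 0 h was above its level in total RNA in all 3 experiments. The difference between the slopes of both hairpins was not tested. The remaining passengers, miR-29b-2-5p and miR-29c-5p, failed the filter on low counts, with at most 3 and 2 counts in any labelled library.

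The counts of each member were divided into isoform classes, which no source used here defines. Their names were read as the canonical sequence, trimmed forms, and templated or non-templated additions at either end. For the templated 5′ and 3′ classes, extension is thus a reading of the name. Shares were tested with limma on the log2 odds of a class, for all 1236 pairs of miRNA and class with enough counts, and 13 such pairs belonged to the members. miR-29a-3p had 10 of them, miR-29b-3p 2, miR-29b-1-5p 1 and miR-29c-3p none, so only miR-29a-3p could be described in depth. Of these 13, 4 passed, all in miR-29a-3p, where 9.47% of all pairs did. With the block 7 passed, where 22.3% of all pairs did.

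Copies of mmu-miR-29a-3p with an A added at the 3′ end gained share over the chase. The hairpin continues with U after this strand, so the A is not the next templated base. The A form made up 4.43, 4.00 and 4.51% of the counts at 0 h in experiments 1 to 3 and 6.57, 8.13 and 6.94% at 12 h, with no overlap. Such separation was not counted over all pairs of miRNA and class. The mean of the A form stayed near 4.31 ± 0.272% at 0 h and 4.61 ± 0.183% at 4 h, and stood at 5.79 ± 0.237% at 8 h and 7.21 ± 0.819% at 12 h (SD, n = 3). The slope was 0.071 in log2 odds per hour (SE 0.00851, limma adjusted p = 7.13e-06), and the class was called in all 7 alternatives run. Over all miRNAs the A form was called up in 17 and down in 1 of 129. Total RNA held 4.61% (95% exact binomial interval 4.43 to 4.80) in unlabelled and 5.98% (5.72 to 6.25) in 4SU-pulsed cells, and the negative extraction 3.10% (1.66 to 5.23, 13 of 420 counts).

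All non-templated 3′ additions of mmu-miR-29a-3p together rose from 11.7 ± 1.88% at 0 h to 17.4 ± 2.68% at 12 h (SD, n = 3; slope 0.062, SE 0.0125, limma adjusted p = 0.00223), a class that contains the A form. Of the other added bases, G was the commonest, at 3.16 ± 0.603% and 3.94 ± 0.586%, followed by C, at 0.999 ± 0.280% and 1.42 ± 0.219%. Their slopes of 0.034 and 0.051 passed only with the block (limma adjusted p = 0.0134 and 0.0124, against 0.179 and 0.0589 without it), and so did mixed additions (slope 0.055, 6.49e-05 against 0.129). Added U stayed rare, at 0.0795 ± 0.0337% and 0.111 ± 0.0392% (slope 0.029, SE 0.0319, limma adjusted p = 0.650).

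The share of the canonical sequence of mmu-miR-29a-3p fell from 57.8 ± 1.01% to 53.7 ± 1.32% (SD, n = 3; slope -0.025, SE 0.00724, limma adjusted p = 0.0265). Templated 5′ extensions fell from 7.57 ± 1.05% to 6.00 ± 0.899% (slope -0.034, SE 0.00883, limma adjusted p = 0.0149), in each of the 3 experiments. Both calls without the block were lost without experiment 1 (0.144 for the canonical form and 0.0666 for 5′ extensions) and without experiment 3 (0.139 and 0.0732). Trimmed forms, at 20.9 ± 2.45% and 20.8 ± 4.74%, and templated 3′ extensions, at 1.95 ± 0.194% and 2.05 ± 0.196%, did not pass (limma adjusted p = 0.824 and 0.740).

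**Figure D5:**
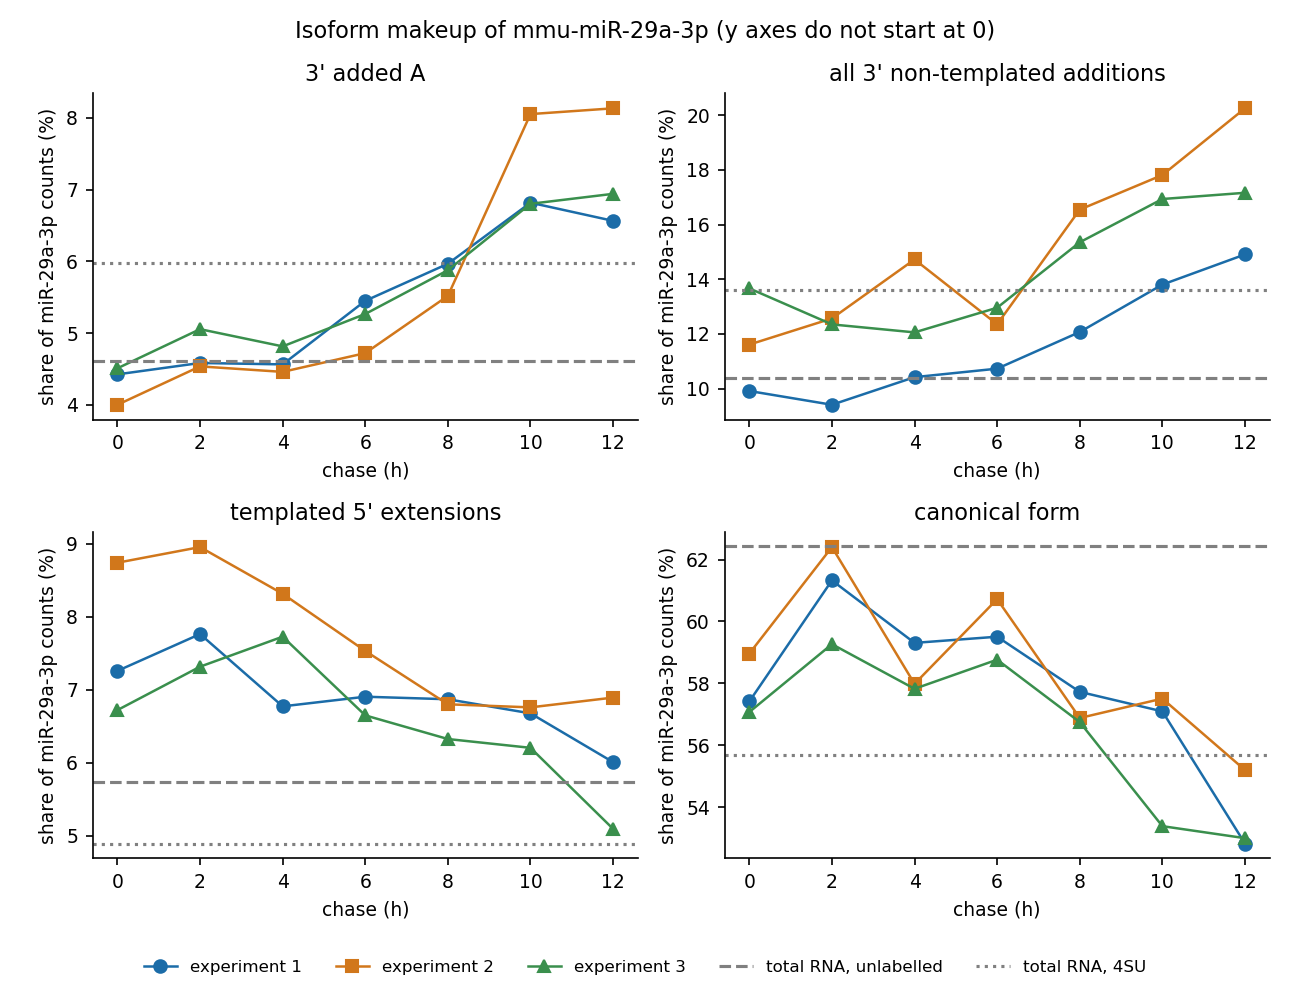
Share of miR-29a-3p counts (percent, axes that do not start at 0) in 4 isoform classes against hours of chase, 1 line per experiment, with grey lines for both total RNA libraries. The A form and all non-templated 3′ additions stand higher at 12 h than at 0 h in each experiment, and templated 5′ extensions and the canonical form stand lower.

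The other members had makeups of their own. miR-29b-3p was mostly canonical, at 85.5 ± 8.83% over the 21 labelled libraries (SD), with 12.0 ± 8.13% trimmed. In total unlabelled RNA it was 94.2% canonical (95% exact binomial interval 92.8 to 95.4) and 4.06% trimmed (3.04 to 5.29). Neither share had a called slope (limma adjusted p = 0.831 and 0.925). miR-29c-3p carried non-templated 3′ additions on 28.4% of its 475 pooled labelled counts, beside 12.4% of the 290588 of miR-29a-3p, and on 29.7% (24.2 to 35.7) in total unlabelled RNA. By this reading of the class names, miR-29b-1-5p was mostly longer than its listed sequence. Templated 3′ extensions made up 86.2 ± 6.47% over the 21 labelled libraries and 84.0% (75.0 to 90.8) in total unlabelled RNA. The canonical form made up 2.83 ± 2.45% over these labelled libraries. In the hairpin GAU follows the listed passenger. The share of extended copies went from 91.2 ± 2.99% at 0 h to 79.7 ± 7.82% at 12 h (SD, n = 3), which did not pass (slope -0.075, SE 0.0406, limma adjusted p = 0.281).

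To place the members among other miRNAs, log2 of CPM plus 1 was centred within experiments and correlated over the 21 labelled libraries, as a description. All points share the chase series and library depth. Among 409 tested miRNAs outside the family, miR-27a-3p (Pearson r 0.796), miR-421-3p (0.779) and miR-30e-5p (0.776) were most like miR-29a-3p. For miR-29b-3p they were miR-30e-5p (0.838), miR-19a-3p (0.780) and miR-421-3p (0.749), and for miR-29c-3p they were miR-186-5p (0.822), miR-301a-3p (0.755) and miR-98-3p (0.753). For miR-29b-1-5p they were miR-27b-5p (0.863), miR-92a-1-5p (0.855) and let-7b-3p (0.840). These are less usual strands of their hairpins, but how many of the 409 are such strands was not counted. Within the family, miR-29a-3p correlated at 0.780 with miR-29b-3p and at 0.758 with miR-29c-3p, and miR-29b-3p at 0.642 with miR-29c-3p. The passenger correlated at -0.47, -0.36 and -0.48 with miR-29a-3p, miR-29b-3p and miR-29c-3p.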

How the data were processed

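Small RNA libraries (TruSeq) were sequenced, with bases called by CASAVA 1.8.0 per the submitters' processing notes. No source used here names the aligner, the annotation, the rule for reads matching several miRNAs or the isoform definitions. The authors deposited raw read counts per isoform class: 7129 entries for 1221 mature names and 20 classes, with whole numbers. An entry that occurred in duplicate (1) was removed, and 8 classes that do not repeat each other were summed (repeats were equal in 25728 of 25728 cells). Groups came from the labels. edgeR 4.0.16 (R 4.3.3; TMM, filterByExpr by time point, quasi-likelihood test) gave slopes and the 12 h contrast on 414 miRNAs. limma 3.58.1 tested arm ratios (pseudocount 1 CPM) and isoform odds (0.5 added, mean of at least 10 counts in class and rest). Pair ratios were permuted within experiments. Calls rested on Benjamini-Hochberg adjusted p-values at 0.05, and some unadjusted p-values are given beside them. The edgeR fits and limma's ratio fit, all without the block, and the permutation test were tried on simulated data. For edgeR and limma these data held no experiment effect, and the blocked fits were not tried.

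After subtracting each time point's mean, libraries correlated at 0.309 to 0.742 in the 63 pairs of one experiment. The 147 other pairs gave -0.787 to 0.225, but the subtraction by itself lowers values between experiments at one time point. The experiment number, from the labels, was therefore taken to pair the libraries on the positive values within experiments. Alternatives covered the block, DESeq2 1.42.0, scaling, filters, isoform sums, thinning and left-out libraries. RefSeq sequences (GRCm38.p6) matched 1037 of 1221 names, and host genes are from GENCODE. Named miRNAs are the members, the other strands of their hairpins, the 3 most correlated miRNAs per member and up to 3 hairpins on either side of Mir29b-1. Members, marker lists and tests were chosen with earlier results of these data known.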

Additional observations from a re-analysis of the deposited data

How the results depend on the processing

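The loss of share of miR-29b-1-5p was called in all 39 alternatives that could test it, as was the fall of the Mir29b-1 arm ratio in all 30. The passenger failed the filter when only canonical counts were used, so that setting gave it no slope or contrast. Its arm ratio was still fitted in that setting, on few canonical passenger counts beside the 1 CPM added. Low counts limit the precision for miR-29b-3p, miR-29c-3p and the late miR-29b-1-5p libraries. Settings with a single experiment, library or time point left out under the block were chosen after the data were seen. Where calls changed below, the cause was not tested. The block changed no call of the members beyond those given here or in the text above.

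Slopes newly called were, for miR-29a-3p, 0.041 with the block, 0.038 with DESeq2, 0.042 with voom and 0.049 with upper-quartile scaling. With the block it was also called at 0.046 both without experiment 1's 12 h library and without 0 h, and at 0.044 and 0.047 without experiments 1 and 2. For miR-29b-3p they were 0.078 with the block, 0.077 with DESeq2 and 0.088 with upper-quartile scaling, and, with the block, 0.10 without experiment 1's 12 h library and 0.084 and 0.072 without experiments 1 and 2. The miR-29c-3p call was lost at 0.094 with library totals, 0.11 without filter, 0.075 with canonical and 0.086 with templated classes, and 0.086 without 12 h. Leaving out a library or an experiment gave 0.029 to 0.046 for miR-29a-3p, 0.062 to 0.093 for miR-29b-3p, 0.097 to 0.13 for miR-29c-3p and -0.20 to -0.15 for miR-29b-1-5p. The median slope of all miRNAs was -0.023 with library totals.

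The 12 h contrast of miR-29b-1-5p was called at -1.84 with the block, -1.82 with DESeq2, -1.97 without filter and, with the block, -1.69 without the 12 h library of experiment 1 and -1.68, -2.27 and -1.44 without experiments 1, 2 and 3. That of miR-29c-3p was called at 1.34 with the block, 1.76 without the 12 h library of experiment 1 and 1.39 without experiment 2. Under the block, miR-29a-3p was called at 0.49 without that library and 0.55 without experiment 2, and miR-29b-3p at 1.19 and 0.82. Leaving out a library or an experiment without the block called none of the 4, at 0.22 to 0.53, 0.55 to 0.95, 1.06 to 1.59 and -2.35 to -1.21 for miR-29a-3p, miR-29b-3p, miR-29c-3p and miR-29b-1-5p.

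Slopes called among all miRNAs numbered 132 with the block, 14 without 0 h and 21 without 12 h, and, with the block, 127 without experiment 1's 12 h library, 92 without 0 h and 84, 148 and 83 without experiments 1, 2 and 3. They were 15 to 79 with a library or experiment left out, with 20, 79 and 15 without experiments 1, 2 and 3, 29 without the 0 h library of experiment 1 and 33 without that of experiment 3. Contrasts called numbered 90 with the block, 15 with DESeq2, 14 with library totals, 8 with upper-quartile scaling, 10 without filter, 2 after thinning and 0 with the 6 libraries of both times alone. With the block they were 65 without the 12 h library of experiment 1 and 33, 112 and 37 without experiments 1, 2 and 3, and 0 to 12 with a library or experiment left out and no block (0 without experiment 1 or 3, or without the 0 h library of experiment 1 or 2 or the 12 h library of experiment 1 or 3). Arm ratios called numbered 30 with the block, 4 without 0 h, 8 without 12 h and 3 to 26 with a library or experiment left out (3, 26 and 4 without experiments 1, 2 and 3, and 5 and 6 without the 0 h library of experiments 1 and 2). Isoform classes called numbered 276 with the block, 66 without 0 h and 57 to 149 with an experiment left out.

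The ratio of miR-29c-3p to miR-29a-3p lost its call with the canonical class (0.026) and ran from 0.039 to 0.079 with an experiment left out. That of miR-29c-3p to miR-29b-3p reversed to -0.019 with the canonical class and was called at 0.075 without 0 h. For miR-29b-3p, the uncalled slopes of the canonical and trimmed shares changed sign without 0 h, to -0.0038 and 0.049, and ran from -0.023 to 0.081 and from -0.036 to 0.0016 with an experiment left out.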

Other observations

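Trimmed copies of mmu-miR-29b-1-5p, a class too rare for the test, held 2.89, 3.01 and 2.04% of the counts at 0 h in experiments 1 to 3 (10 of 346, 4 of 133 and 11 of 540) and 25.0, 15.4 and 10.9% at 12 h (7 of 28, 4 of 26 and 5 of 46). These groups did not overlap, but such separation was not counted over all pairs of miRNA and class. The times between showed no steady rise: the means were 4.58 ± 1.48% at 2 h, 7.01 ± 2.81% at 4 h, 9.40 ± 1.75% at 6 h, 4.82 ± 1.87% at 8 h and 5.02 ± 0.858% at 10 h (SD, n = 3). The class was picked after its values were seen, and it stood at 9.57% (95% exact binomial interval 4.47 to 17.4) in total unlabelled RNA and at 5.66% (1.18 to 15.7) in total 4SU RNA.

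miR-29b-2-5p, the passenger of the second miR-29b hairpin, had 15 counts over all 21 labelled libraries, of which 14 were trimmed, and 0 in both total RNA libraries. miR-29c-5p likewise had 15 counts, with 0 in total unlabelled RNA and 3 in total 4SU RNA. By contrast miR-29b-1-5p had 3223 and miR-29a-5p 1143 labelled counts, so nearly all passenger reads of the family came from the cluster on chromosome 6.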
